A study of Mus musculus with 6 samples.

Results

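The respiratory chain subunits encoded in the nucleus were taken from the count table by gene name: names made of Nduf, a letter a, b, c, s or v and a number (complex I), Sdha to Sdhd (complex II), names that begin with Uqcr (complex III), with Cox, a number from 4 to 8 and a letter a to c (complex IV), or with Atp5 and a letter a to o (complex V). The rule found 79 of 23284 genes, with 36 members in complex I, 4 in complex II, 8 in complex III, 16 in complex IV and 15 in complex V. Transcript levels were read by RNA-seq, after removal of ribosomal RNA, in 2 mouse lines. MV+, called Pax6-ON in the study, is a lens epithelial line from cultured lens epithelia of a wild-type C57BL6 mouse, and RAG, called Pax6-OFF, is a renal adenocarcinoma line from the BALB/c strain. The sources name no added allele or agent in either line, both were grown in the same serum-containing medium, and each line gave 3 libraries from separate flasks. Cell type, tumour origin and strain differ together between the lines and cannot be told apart, and each line is a single model of its tissue, so the p-values measure the spread between flasks of a line.

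Complexes I, III and IV pass electrons from NADH, ubiquinol and cytochrome c to oxygen and pump protons across the inner mitochondrial membrane, complex II feeds electrons from succinate into the same ubiquinone pool, and complex V uses the proton gradient to make ATP. Apart from complex II, whose subunits are all nuclear, each complex joins subunits encoded in the nucleus to subunits encoded in mitochondrial DNA. Kidney tubule epithelium is rich in mitochondria, while lens fibre cells lose theirs as they mature and lens epithelial cells keep them.

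Total counts lay between 17413045 and 22428230 in MV+ and between 28252165 and 43168532 in RAG, and the ribosomal RNA precursor Rn45s took 12.4% to 20.1% of them. Differences are given as edgeR log2 fold changes, MV+ minus RAG, ± SE, with Benjamini-Hochberg adjusted p-values over the 12965 genes with enough counts to test, and a gene was called at an adjusted p under 0.05. CPM values (counts scaled to a common library size) follow TMM scaling of library sizes and compare 1 gene between libraries, whereas the deposited FPKM values, which divide by exon length, compare genes. Of 6 lens markers tested, Pax6, Sox2, Six3 and Prox1 were higher in MV+ and Maf and Cryab lower, the lens markers Foxe3 and Crybb2 had no count in any library, and all 7 kidney epithelial markers tested were lower in MV+. In such bulk cultures a lower level in every cell and fewer cells with the transcript cannot be told apart.

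Most subunit genes had lower levels in the lens line. Of the 79 members 74 were tested, and 54 were called: 7 were higher and 47 lower in MV+, while 20 were not called. The share called was 79.3% over the whole set of tested genes, with 40.4% higher and 38.9% lower. The members' median log2 fold change was -0.31, with the middle 50% of members between -0.59 and -0.10, beside a median of 0.03 over all genes tested. The changes were small: 5 members (Cox6a2, Cox7a1, Atp5e, Uqcrfs1 and Cox7a2l) were lower past a log2 fold change of 1 and none was higher past it, where 16.4% of all genes tested were lower and 18.7% higher by that much. In log2(FPKM + 1), limma called 10 members higher and 31 lower. Flasks of a line varied little, with a median coefficient of variation of 5.70% in MV+ and 5.69% in RAG over the tested members. Among the 66 with a mean of at least 10 CPM it was highest in Ndufa12 (20.2% and 15.3%), and among the rarer ones it reached 27.1% for Cox7a1 in MV+ and 29.8% for Atp5g2 in RAG. The 3 libraries of MV+ lay wholly below those of RAG for 45 of the 74 tested members and wholly above for 6, beside 39.7% and 40.9% of all genes tested.

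**Figure D1:**
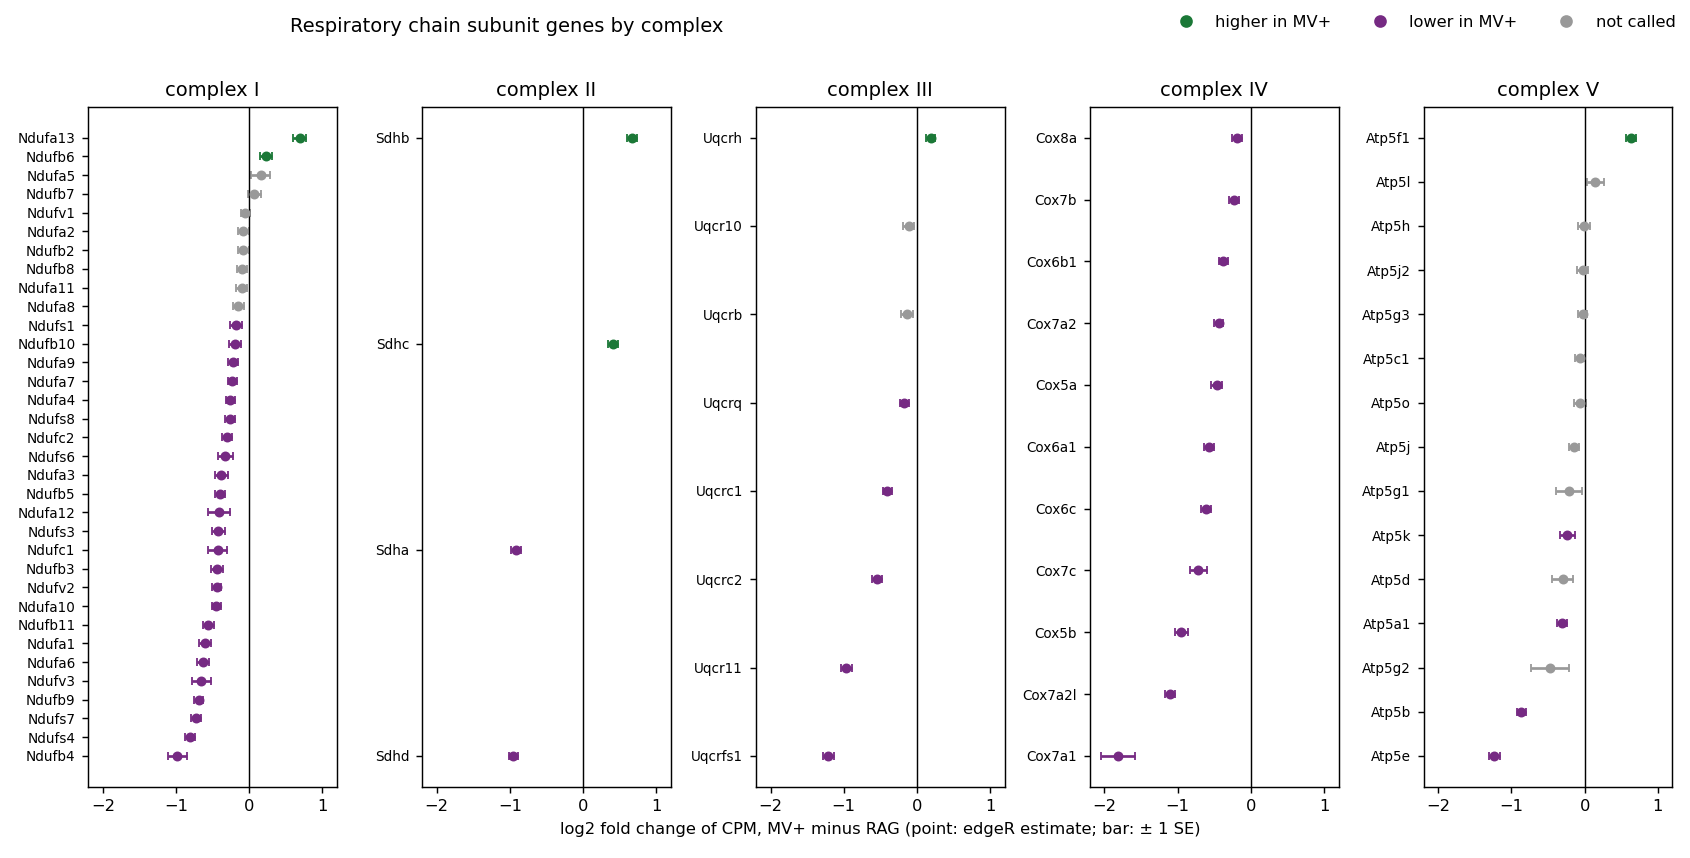
Log2 fold change of tested members (x axis, MV+ minus RAG; point, edgeR estimate; bar, 1 SE), sorted within its complex and coloured by call. Cox6a2, at -4.84, is among those not drawn. All points of complex IV lie left of 0 on this scale (Cox8a is at 0.00 on the FPKM scale), complex II is split into 2 higher and 2 lower genes, and 10 of the 15 members of complex V are not called.

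Complex I, the NADH dehydrogenase, had 24 members lower, 3 higher and 8 not called of 35 tested and a median log2 fold change of -0.31. Among its catalytic core subunits, Ndufs7, which carries the iron-sulfur cluster nearest the ubiquinone-binding site, was at 73.6, 72.7 and 82.3 CPM in MV+ replicates 1, 2 and 3 and at 124, 124 and 132 CPM in RAG replicates 1, 2 and 3, a log2 fold change of -0.73 ± 0.07 (adjusted p = 1.16e-07). All MV+ libraries stood below all RAG libraries.

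Differences were smaller in 5 further core subunits of complex I. Ndufv2, an iron-sulfur subunit of the NADH-oxidising module, was at 133, 142 and 127 CPM in MV+ and 177, 186 and 185 CPM in RAG (-0.45 ± 0.07, adjusted p = 1.56e-05). Ndufs3 was at 20.4, 22.4 and 20.1 CPM in MV+ and 30.3, 25.3 and 28.4 CPM in RAG (-0.42 ± 0.09, adjusted p = 0.000516). Ndufs8, another iron-sulfur subunit, was at 84.2, 85.3 and 86.6 CPM in MV+ and 108, 98.9 and 101 CPM in RAG (-0.27 ± 0.06, adjusted p = 0.00156). For these 3 genes the groups did not overlap on the CPM scale. Ndufv1, which binds NADH and the flavin, was not called, at 184, 184 and 185 CPM in MV+ and 199, 188 and 189 CPM in RAG (-0.06 ± 0.06, adjusted p = 0.405). Ndufs1, the largest core subunit, was at 129, 144 and 123 CPM in MV+ and 146, 164 and 138 CPM in RAG, overlapping groups with a difference of -0.18 ± 0.08 and an adjusted p of 0.0463.

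Among the accessory subunits of complex I, which stabilise the enzyme without taking part in catalysis, Ndufb4 fell most. Ndufb4 was at 4.39, 4.42 and 4.15 CPM in MV+ and 8.80, 9.32 and 7.59 CPM in RAG (-0.98 ± 0.13, adjusted p = 3.48e-06), but 87.2% of its 50-base exon windows have an identical copy elsewhere in the genome, and reads that fit several places equally well were not counted. Ndufs4, whose loss impairs complex I in mouse and human, was at 50.6, 55.7 and 49.4 CPM in MV+ and 91.8, 91.3 and 90.4 CPM in RAG (-0.81 ± 0.07, adjusted p = 2.81e-08). Both had MV+ libraries wholly below those of RAG. Ndufa13, also known as Grim19, was higher, with 67.8, 60.9 and 56.6 CPM in MV+ and 42.6, 34.5 and 37.7 CPM in RAG (0.69 ± 0.09, adjusted p = 3.75e-06). Of its exon bases 344 are shared with Tssk6, whose own counts were 16, 15 and 25 in MV+ and 3, 2 and 7 in RAG. Reads that overlap both genes were left out of both. Ndufb6 was at 69.8, 77.6 and 72.5 CPM in MV+ and 54.7, 62.1 and 70.5 CPM in RAG, overlapping groups with a difference of 0.23 ± 0.09 (adjusted p = 0.0257).

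The remaining accessory members of complex I were mostly lower. Called lower were Ndufb9 (-0.69), Ndufv3 (-0.66), Ndufa6 (-0.63), Ndufa1 (-0.60), Ndufb11 (-0.56), Ndufa10 (-0.45), Ndufb3 (-0.43), Ndufc1 (-0.43), Ndufa12 (-0.42), Ndufb5 (-0.40), Ndufa3 (-0.38), Ndufs6 (-0.33), Ndufc2 (-0.31), Ndufa4 (-0.26, named for complex I but since assigned to complex IV), Ndufa7 (-0.23), Ndufa9 (-0.22) and Ndufb10 (-0.20), all as log2 fold changes. Not called were Ndufa8 (-0.15), Ndufa11 (-0.10), Ndufb8 (-0.10), Ndufa2 (-0.08), Ndufb2 (-0.08), Ndufb7 (0.07) and Ndufa5 (0.15). With the replicate number as a block, Ndufa8 was called at -0.15 (adjusted p = 0.0134).

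Complex II, succinate dehydrogenase, has 4 subunits, and here they split into 2 pairs. Sdha, the flavoprotein that oxidises succinate in the citric acid cycle, was at 229.7, 232 and 219 CPM in MV+ and 448, 446 and 396 CPM in RAG (-0.92 ± 0.07, adjusted p = 6.54e-09). Sdhd, a membrane anchor, was at 111, 122 and 119 CPM in MV+ and 224, 236 and 221 CPM in RAG (-0.95 ± 0.07, adjusted p = 2.32e-09). Sdhb, the iron-sulfur subunit bound to Sdha, was higher, at 122, 134 and 136 CPM in MV+ and 83.5, 80.7 and 81.6 CPM in RAG (0.67 ± 0.07, adjusted p = 1.71e-07). Sdhc, the anchor that pairs with Sdhd, was also higher, at 109, 113 and 121 CPM in MV+ and 87.5, 82.6 and 88.1 CPM in RAG (0.41 ± 0.07, adjusted p = 4.13e-05). In none of the 4 genes did the lines overlap, and each call held in every alternative fit. Per length, RAG had more Sdha and Sdhd (141 ± 2.91 and 166 ± 8.43 FPKM, SD, n = 3) than Sdhb and Sdhc (71.7 ± 3.61 and 68.6 ± 5.25 FPKM). In MV+ the order was Sdhb at 129.8 ± 11.3 FPKM, Sdhc at 103 ± 8.27, Sdhd at 97.3 ± 6.76 and Sdha at 84.5 ± 1.88, and Sdhc and Sdhd lay within 1 SD of each other.

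**Figure D2:**
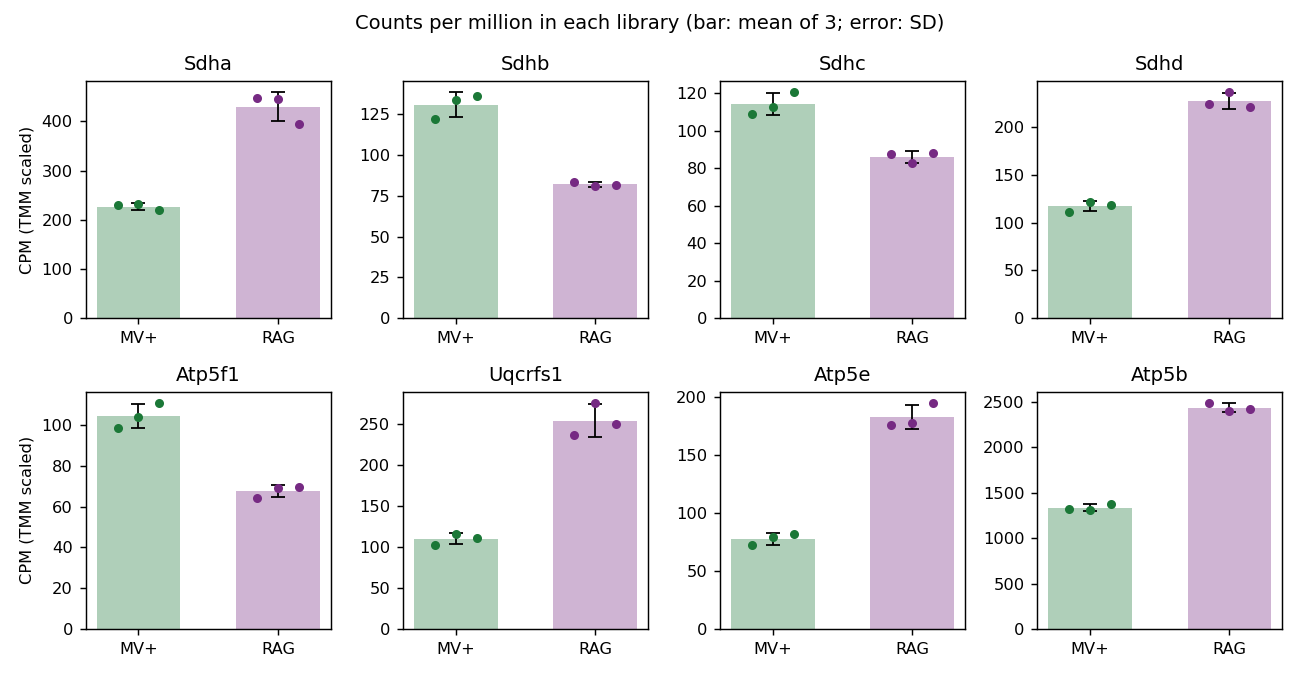
TMM-scaled CPM (y axis, from 0) in the 3 libraries of each line (points), with their mean (bar) and SD (error bar), for the 4 genes of complex II and 4 members of other complexes. Sdhb, Sdhc and Atp5f1 are higher in each MV+ library than in each RAG library, and Sdha, Sdhd, Uqcrfs1, Atp5e and Atp5b are lower in each.

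Complex III, which passes electrons from ubiquinol to cytochrome c, had 5 members lower, 1 higher and 2 not called of 8. Uqcrfs1, the Rieske iron-sulfur protein, differed most, at 103, 116 and 111 CPM in MV+ and 237, 275 and 250.3 CPM in RAG (-1.21 ± 0.08, adjusted p = 5.88e-10). Uqcr11, a small accessory subunit, was at 33.4, 34.0 and 37.6 CPM in MV+ and 71.5, 65.5 and 68.3 CPM in RAG (-0.97 ± 0.07, adjusted p = 9.19e-09). The lines did not overlap for either gene, but 40.1% of the exon windows of Uqcr11 have copies elsewhere in the genome. The core proteins Uqcrc1 and Uqcrc2 were lower by less. Uqcrc2 was at 137, 153 and 149 CPM in MV+ and 199, 222 and 217 CPM in RAG (-0.54 ± 0.07, adjusted p = 3.62e-06), and Uqcrc1 was at 206, 229 and 231 CPM in MV+ and 287, 293 and 300.2 CPM in RAG (-0.40 ± 0.07, adjusted p = 4.78e-05). Uqcrh, the acidic hinge protein next to cytochrome c1, was higher, at 109, 104 and 103 CPM in MV+ and 91.1, 90.0 and 96.4 CPM in RAG (0.19 ± 0.06, adjusted p = 0.0154). Uqcrq was called at -0.17 on the TMM scale, while its log2(FPKM + 1) values gave a difference of 0.01. Uqcrb (-0.13) and Uqcr10 (-0.11) were not called, and Uqcr10 was called at -0.11 with the replicate block (adjusted p = 0.0452).

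Complex IV, cytochrome c oxidase, was the complex in which all 12 tested members were called lower, although Cox8a, at -0.18 on the TMM scale, had a difference of 0.00 in log2(FPKM + 1). Its nuclear subunits surround the catalytic core, which mitochondrial DNA encodes. Cox7a2l, which helps to join complexes III and IV into supercomplexes, was at 33.2, 32.8 and 34.5 CPM in MV+ and 71.8, 74.5 and 69.7 CPM in RAG (-1.10 ± 0.07, adjusted p = 7.08e-10). Cox5b was at 32.3, 28.0 and 28.2 CPM in MV+ and 64.3, 52.6 and 53.7 CPM in RAG (-0.95 ± 0.09, adjusted p = 1.25e-07). Cox7c was at 5.23, 5.66 and 6.67 CPM in MV+ and 9.63, 9.44 and 9.94 CPM in RAG (-0.72 ± 0.12, adjusted p = 4.67e-05). In each of these 3 genes the groups were apart, and each has copies of over 50% of its exon windows elsewhere in the genome. Of the rest, Cox6c had a log2 fold change of -0.61 and Cox5a of -0.47.

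Several subunits of complex IV come in isoforms that are known to replace each other in muscle or testis, and both lines used the broadly expressed forms. Cox6a1 made up 99.98% of the summed FPKM of Cox6a1 and Cox6a2 in MV+ and 99.6% ± 0.0320 in RAG (SD, n = 3). Cox6a1 itself was lower, at 219, 196 and 202 CPM in MV+ and 331, 291 and 293 CPM in RAG (-0.57 ± 0.07, adjusted p = 3.2e-06). The heart and muscle form Cox6a2 had 1, 1 and 1 counts in MV+ and 50, 33 and 64 in RAG, 31.3 times the rate in RAG (95% exact interval for counting error 10.5 to 154). Its share of the pair was thus larger in RAG, though at 0.387% ± 0.0320 it stayed small (exact permutation test, 2-sided p = 0.1, the smallest that 3 against 3 can give).

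Cox7a1, the other heart and muscle form, made up 1.57% ± 0.427 of the summed FPKM of Cox7a1 and Cox7a2 in MV+ and 3.93% ± 0.134 in RAG, without overlap (exact permutation p = 0.1). Cox7a1 was at 0.834, 0.476 and 0.692 CPM in MV+ and 2.31, 2.23 and 2.44 CPM in RAG (-1.81 ± 0.23, adjusted p = 2.55e-06), and Cox7a2 was at 85.7, 86.7 and 86.8 CPM in MV+ and 118, 115 and 118 CPM in RAG (-0.44 ± 0.06, adjusted p = 9.05e-06). Both forms were lower in MV+, the minor one by more. None of 11 muscle markers had enough counts to be tested, 4 had no count in any library, and together they summed to 0.285 to 0.779 CPM in MV+ and 0.264 to 0.460 CPM in RAG. The testis form Cox7b2 had no count in MV+ and 7, 3 and 7 counts in RAG, at least 3.62-fold higher in RAG against a floor of 3 counts over the MV+ group, beside Cox7b at 95.3, 87.4 and 88.5 CPM in MV+ and 113, 104 and 101 CPM in RAG (-0.23 ± 0.07, adjusted p = 0.00757). Of 8 germ cell markers Sycp3 had enough counts to be tested and was lower in MV+ (-1.72), 2 had no count in any library, and together they summed to 0.389 to 0.619 CPM in MV+ and 1.15 to 1.49 CPM in RAG; their part in the Cox7b2 counts was not tested.

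The remaining isoforms were close to absent. The testis form Cox6b2 had 2 counts in RAG replicate 1 and none elsewhere, against Cox6b1 at 116, 109.9 and 109 CPM in MV+ and 152, 138 and 143 CPM in RAG (-0.37 ± 0.07, adjusted p = 8.87e-05). Cox8b had 2, 0 and 1 counts in MV+ and 1, 2 and 1 in RAG, and Cox8c had none in any library, which allows up to 3 counts in each. Cox8a, the broadly expressed form, was at 189.7, 176 and 184 CPM in MV+ and 221, 200.1 and 202 CPM in RAG, so nearly all Cox8 transcript in both lines was Cox8a (99.96% ± 0.0444 of FPKM in MV+ and 99.97% ± 0.0219 in RAG).

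Complex V, the ATP synthase, was the least changed by count: 4 members were lower, 1 was higher and 10 of 15 were not called. Atp5e, the epsilon subunit of the central stalk, was at 72.1, 79.0 and 81.8 CPM in MV+ and 176, 177 and 195 CPM in RAG (-1.23 ± 0.07, adjusted p = 2.95e-10). Atp5b, the catalytic beta subunit and the most abundant member per length, was at 1325, 1311 and 1376 CPM in MV+ and 2489, 2402 and 2426 CPM in RAG (-0.87 ± 0.06, adjusted p = 3.66e-09). Its partner in the catalytic hexamer, the alpha subunit Atp5a1, was lower by less, at 798, 810.0 and 748 CPM in MV+ and 1009, 939.8 and 971 CPM in RAG (-0.31 ± 0.06, adjusted p = 0.000421). All MV+ libraries of these 3 genes lay below all RAG libraries. Per length the beta to alpha order was kept in both lines, with Atp5b at 758 ± 39.0 and Atp5a1 at 344 ± 10.2 FPKM in MV+ and at 1219 ± 60.1 and 376 ± 21.2 FPKM in RAG (SD, n = 3).

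Atp5f1, the b subunit of the peripheral stalk that holds the catalytic head still, was the only member of complex V called higher, at 98.8, 104 and 111 CPM in MV+ and 64.1, 69.0 and 69.6 CPM in RAG (0.63 ± 0.07, adjusted p = 5.75e-07). Of its exon bases 205 are shared with Wdr77, which was itself higher in MV+ (0.56). The counting did not use strand, and reads that overlap both genes were left out of both. In addition, 26.4% of the exon windows of Atp5f1 have copies elsewhere in the genome. The gamma subunit Atp5c1, the rotor axle, was at 185, 183 and 196 CPM in MV+ and 193, 194 and 202 CPM in RAG (-0.06 ± 0.06, adjusted p = 0.369). The delta subunit Atp5d was at 179.7, 146 and 128 CPM in MV+ and 217, 167 and 175 CPM in RAG (-0.30 ± 0.14, adjusted p = 0.0922). Replicate 1 stood highest in both lines for Atp5d, and with the replicate number as a block it was called (-0.30, adjusted p = 9.13e-05), as it was without MV+ replicate 1 (-0.43, adjusted p = 0.00287). Atp5j, at -0.14, was called with the block (-0.15, adjusted p = 0.0142) and without MV+ replicate 1 (-0.18, adjusted p = 0.0432), and 123 of its exon bases are shared with Gabpa. Atp5k was called lower, at -0.24. Not called were Atp5o (-0.07), Atp5j2 (-0.03), Atp5h (-0.01) and Atp5l (0.14).

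The c ring of complex V is built from 1 mature protein that 3 genes encode, Atp5g1 on chromosome 11, Atp5g2 on chromosome 15 and Atp5g3 on chromosome 2. Their last 60 coding bases before the stop codon, from GENCODE transcripts of mm9, are shown because they let reads from the genes be told apart; capitals mark the 18 positions at which the genes differ.
Atp5g1: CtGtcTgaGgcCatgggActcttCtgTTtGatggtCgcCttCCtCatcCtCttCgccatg
Atp5g2: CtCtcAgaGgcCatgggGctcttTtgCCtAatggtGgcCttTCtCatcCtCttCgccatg
Atp5g3: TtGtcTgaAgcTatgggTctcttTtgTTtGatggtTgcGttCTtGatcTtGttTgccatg
Over the last 225 coding bases Atp5g1 and Atp5g2 differed at 34 positions, Atp5g1 and Atp5g3 at 45 and Atp5g2 and Atp5g3 at 48, while the 75 residues they encode did not differ. Nearly all measured c subunit transcript came from Atp5g3, with 97.8% ± 0.168 of the summed FPKM of the 3 genes in MV+ and 97.5% ± 0.584 in RAG (exact permutation p = 0.5). Atp5g3 was at 371, 351 and 333 CPM in MV+ and 360.1, 357 and 358 CPM in RAG (-0.03 ± 0.06, adjusted p = 0.691). Atp5g1 was at 9.90, 8.23 and 7.90 CPM in MV+ and 8.67, 7.98 and 12.9 CPM in RAG (-0.21 ± 0.18, adjusted p = 0.303). Atp5g2 was at 1.28, 0.999 and 0.977 CPM in MV+ and 0.989, 1.84 and 1.63 CPM in RAG (-0.47 ± 0.26, adjusted p = 0.111; -0.67 with an adjusted p of 0.0183 without RAG replicate 1). The lines overlapped for all 3 genes. The counts of Atp5g1 and Atp5g2 leave out reads that fit several places, and 79.5% and 100% of their exon windows have copies elsewhere. The true shares of both may thus be larger. With all its windows copied, the counts of Atp5g2 cannot show its level or whether it differed between the lines.

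Summed over the members of each complex, the deposited FPKM values were lower in MV+ in each complex, though less so than the CPM values. Complex I summed to 3203, 3278 and 3341 FPKM in MV+ and 3430, 3348 and 3677 FPKM in RAG, so that its lowest RAG library lay just above its highest MV+ library. Complex II summed to 385, 423 and 436 FPKM in MV+ and 433, 448 and 460.4 FPKM in RAG, which overlapped. Complex III summed to 1159, 1198 and 1228 FPKM in MV+ and 1286, 1291 and 1431 FPKM in RAG. The difference was wider for complex IV, with 1650.2, 1579 and 1639.97 FPKM in MV+ and 1995, 1873 and 2038 FPKM in RAG, and for complex V, with 2854, 2842 and 2870.0 FPKM in MV+ and 3374, 3269 and 3688 FPKM in RAG. MV+ thus had 93.9%, 92.8%, 89.5%, 82.4% and 82.9% of the RAG sum in complexes I to V. With TMM-scaled CPM in place of FPKM the log2 ratios of the sums moved from -0.09, -0.11, -0.16, -0.28 and -0.27 to -0.24, -0.49, -0.46, -0.47 and -0.52 in complexes I to V. On the FPKM scale the ratio of complex I was -0.05 without RAG replicate 3, and that of complex II was -0.06 without MV+ replicate 1. FPKM carries no scaling between libraries beyond the total, and on that scale the median of all genes tested was 0.15 higher in MV+ than in RAG.

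**Figure D3:**
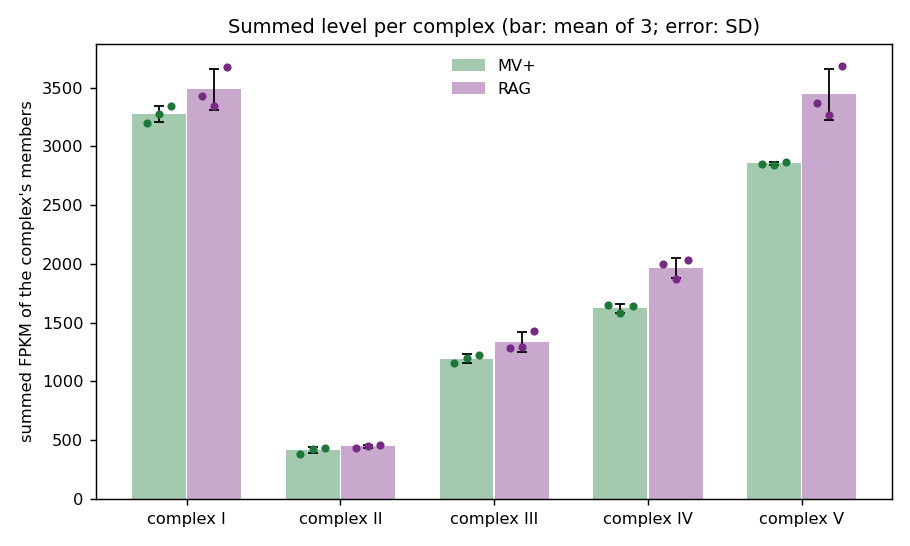
Summed deposited FPKM of the members of each complex (y axis, from 0) in each library (points), with the mean of 3 libraries (bar) and SD (error bar). The bars of MV+ are lower than those of RAG in each complex, most for complex IV (1623 against 1969 FPKM) and complex V (2855 against 3444 FPKM), and the points of complex II overlap. The lower bar of complex V comes from Atp5b and Atp5e.

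Weak calls were open to the choice of libraries. Leaving out a single library ended the call of 9 of the 54 members, and 45 kept it throughout. With MV+ replicate 1 left out, Ndufs1 (adjusted p = 0.117) and Uqcrh (0.0542) were no longer called. MV+ replicate 2 decided Ndufa12 (0.0989), Uqcrq (0.0744), Ndufb10 (0.112), Cox8a (0.083), Ndufb6 (0.0977) and Atp5k (0.0936), and MV+ replicate 3 decided Ndufs1 (0.17), Ndufa12 (0.087), Uqcrq (0.0622), Ndufb10 (0.0969) and Atp5k (0.148). These were small differences, of which Ndufa12 (-0.42) was the widest. On the RAG side, replicate 1 decided the most calls: Ndufs1 (0.0599), Ndufa12 (0.0717), Uqcrq (0.0963), Ndufs6 (0.0652), Ndufb10 (0.24), Cox8a (0.116), Ndufb6 (0.136) and Atp5k (0.207) all missed the threshold in its absence. RAG replicate 2 decided Ndufs1 (0.194), Ndufb6 (0.0679) and Uqcrh (0.0596), and RAG replicate 3 decided Ndufa12 (0.0503), Uqcrq (0.0598) and Atp5k (0.115). Ndufb6 and Uqcrh are among the 7 members called higher, which leaves 5 increases, Ndufa13, Sdhb, Sdhc and Atp5f1 among them, that held in each such fit. In turn Uqcr10 was called in the absence of RAG replicate 2 (-0.17, adjusted p = 0.0494), and Ndufa8 in that of MV+ replicate 1 (-0.20, adjusted p = 0.0348) or RAG replicate 2 (-0.21, adjusted p = 0.0267).

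The genes that build the complexes went mostly the same way as the subunits. Of 13 complex I assembly factors 8 were lower and 3 higher in MV+, of 10 for complexes II and III 6 were lower and 3 higher, and of 20 tested for complex IV 16 were lower and 2 higher. Nubpl, which delivers iron-sulfur clusters to complex I, was at 2.61, 2.19 and 2.81 CPM in MV+ and 15.8, 19.0 and 16.7 CPM in RAG (-2.75 ± 0.13, adjusted p = 2.39e-11). Uqcc, a factor for complex III now named Uqcc1, was at 20.9, 20.3 and 20.7 CPM in MV+ and 77.6, 78.9 and 78.1 CPM in RAG (-1.92 ± 0.07, adjusted p = 7.72e-13). Ccdc56, a factor for complex IV now named Coa3, was at 48.9, 54.5 and 54.5 CPM in MV+ and 179, 168 and 189.7 CPM in RAG (-1.77 ± 0.07, adjusted p = 4.06e-12). These factors differed by more than any tested subunit of the same complex except Cox6a2 and Cox7a1. In the other direction, Ndufaf3 was at 9.07, 9.09 and 9.77 CPM in MV+ and 5.77, 6.48 and 6.01 CPM in RAG (0.62 ± 0.11, adjusted p = 0.000102). Acn9, now Sdhaf3, a factor for complex II, was at 1.5, 1.7 and 1.5 CPM in MV+ and 0.297, 0.0767 and 0.186 CPM in RAG (3.01 ± 0.33, adjusted p = 4.84e-07). Fam36a, now Cox20, was at 10.9, 10.5 and 9.32 CPM in MV+ and 4.25, 4.26 and 5.18 CPM in RAG (1.15 ± 0.12, adjusted p = 5e-07).

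For complex V 2 of 4 assembly and inhibitor genes were lower and none higher, led by Atpaf2 at 46.1, 42.1 and 41.7 CPM in MV+ and 59.1, 58.6 and 56.9 CPM in RAG (-0.43 ± 0.07, adjusted p = 4.76e-05). Of 9 tested respiratory genes with names outside the rule 6 were lower and none higher. They include Cyc1, the cytochrome c1 of complex III (-0.64 ± 0.08, adjusted p = 1.2e-06), and Cox4i1, a subunit of complex IV (-0.60 ± 0.09, adjusted p = 1.19e-05). Atp5s, coupling factor B, differed most, at 2.39, 4.09 and 2.81 CPM in MV+ and 8.31, 8.67 and 8.27 CPM in RAG (-1.43 ± 0.16, adjusted p = 6.69e-07).

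Genes that supply the chain were likewise more often lower than higher in MV+. Of 18 citric acid cycle and pyruvate dehydrogenase genes 13 were lower and 2 higher, with Pdhb at 27.6, 26.8 and 28.7 CPM in MV+ and 89.6, 93.7 and 89.1 CPM in RAG (-1.71 ± 0.07, adjusted p = 3.13e-12) and Dlat at 115, 109 and 120.4 CPM in MV+ and 93.9, 95.0 and 99.0 CPM in RAG (0.26 ± 0.07, adjusted p = 0.00225). Of 19 genes of ubiquinone synthesis and other electron entry 13 were lower and 3 higher. Prodh, proline dehydrogenase, was at 6.06, 6.52 and 6.35 CPM in MV+ and 41.7, 41.1 and 39.9 CPM in RAG (-2.69 ± 0.09, adjusted p = 2.02e-13), and Coq3, a methyltransferase of ubiquinone synthesis, was at 19.8, 19.4 and 17.8 CPM in MV+ and 1.88, 1.92 and 2.23 CPM in RAG (3.22 ± 0.12, adjusted p = 1.07e-12). Of 18 outer membrane, import and chaperone genes 13 were lower and 3 higher, with the import channel gene Timm23 at 3.56, 3.95 and 3.83 CPM in MV+ and 16.3, 17.8 and 18.4 CPM in RAG (-2.21 ± 0.11, adjusted p = 4.49e-11) and the chaperonin gene Hspe1 at 101, 102 and 96.9 CPM in MV+ and 68.5, 72.0 and 74.1 CPM in RAG (0.48 ± 0.07, adjusted p = 5.76e-06). Of 76 mitochondrial ribosomal protein genes 42 were lower and 15 higher, from Mrps6 at 27.5, 26.4 and 27.0 CPM in MV+ and 111, 106 and 112 CPM in RAG (-2.03 ± 0.07, adjusted p = 3.16e-13) to Mrpl16 at 44.2, 42.2 and 40.7 CPM in MV+ and 23.6, 20.9 and 22.1 CPM in RAG (0.93 ± 0.08, adjusted p = 2.58e-08). Cytosolic ribosomal protein genes were the other way round, with 55 higher and 8 lower of 77 tested.

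Of 18 regulators of mitochondrial gene expression 9 were lower and 5 higher in MV+. With them, the 10 lists other than that of the cytosolic ribosome held 205 tested genes. Their median log2 fold change was -0.38, beside 0.03 over all genes tested and 0.40 for the cytosolic ribosomal protein genes left out. Of the 205, 62.4% were called lower and 17.6% higher, against 38.9% and 40.4% of all genes tested. The transcriptional coactivator Ppargc1a, best known for raising respiratory gene expression in brown fat and muscle, was at 0.222, 0.143 and 0.326 CPM in MV+ and 31.7, 30.2 and 30.0 CPM in RAG (-6.99 ± 0.17, adjusted p = 6.74e-15). Its relative Ppargc1b was lower by less (-2.51 ± 0.16, adjusted p = 9.44e-10), and Pprc1, the third member of that family, was higher (0.72 ± 0.07, adjusted p = 2.18e-07). Esrra, which encodes the nuclear receptor ERRalpha that these coactivators bind, was at 35.7, 39.5 and 38.3 CPM in MV+ and 82.0, 79.1 and 78.8 CPM in RAG (-1.08 ± 0.07, adjusted p = 1.03e-09), and Tfam, the packaging and transcription factor of mitochondrial DNA, was lower too (-0.43 ± 0.07, adjusted p = 6.14e-05). Nrf1 and both listed GABP subunits, Gabpa, which binds DNA, and its partner Gabpb1, were higher. Gabpb1 was at 45.9, 49.1 and 42.9 CPM in MV+ and 24.2, 26.6 and 24.6 CPM in RAG (0.87 ± 0.08, adjusted p = 6.62e-08), Gabpa was higher by 0.30 ± 0.07 (adjusted p = 0.00124), and Nrf1 by 0.35 ± 0.07 (adjusted p = 0.000289).

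Of those factors, NRF1, GABP and ERRalpha bind motifs known from promoters of respiratory genes, and motifs of YY1 and SP1 were searched with them. The RefSeq windows (GRCm38.p6) from 250 bases before to 50 bases after a gene's start were searched on both strands for GCATGCGC (NRF1), CCGGAAG (ETS factors, among them GABP), AAGATGGC (YY1), GGGCGG (SP1) and TCAAGGTCA (ERRalpha). A gene counted as a match if any window listed under its name held the letters. Of the 79 members 67 had an entry, 1 of them by a newer name, and 12 had none, among them Ndufa2, Ndufb9, Ndufs1, Sdhc, Uqcrb, Uqcrc2, Uqcrq, Cox6a2, Cox6c, Cox8c and Atp5a1. The NRF1 letters were in 10 of the 67 (14.9%, against 3.05% of all 27025 genes in the table), the ETS letters in 16 (23.9% against 9.93%), the YY1 letters in 10 (14.9% against 3.19%), the SP1 letters in 27 (40.3% against 38.2%) and the ERRalpha letters in 2 (2.99% against 0.466%). For the letters of NRF1, ETS, YY1 and SP1 there were matches among members called higher and among members called lower: of the 10 with the NRF1 letters 1 was higher and 5 lower in MV+, and of the 16 with the ETS letters 3 were higher and 9 lower. Of all 67 members with an entry, 5 were higher and 40 lower, 18 were not called and 4 not tested. The ERRalpha letters were in Sdhd, called lower, and Atp5g3, not called. A match says that the letters are there, not that a factor binds.

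Windows of 250 bases before the start are shown for 4 members, Sdhb and Sdhd because they moved in opposite directions within complex II, and Cox6a1 and Atp5e as called members of complexes IV and V that were lower. Capitals mark matches to the 5 motifs on either strand, and Sdhb lies at chr4:140961021-140961270 on the plus strand, Sdhd at chr9:50603850-50604099, Cox6a1 at chr5:115348959-115349208 and Atp5e at chr2:174464102-174464351 on the minus strand (GRCm38.p6).
Sdhb: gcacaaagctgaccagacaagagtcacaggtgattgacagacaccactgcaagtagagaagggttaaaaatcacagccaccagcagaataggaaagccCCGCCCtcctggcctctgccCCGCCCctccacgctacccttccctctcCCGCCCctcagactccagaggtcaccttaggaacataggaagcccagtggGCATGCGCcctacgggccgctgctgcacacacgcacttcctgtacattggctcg
Sdhd: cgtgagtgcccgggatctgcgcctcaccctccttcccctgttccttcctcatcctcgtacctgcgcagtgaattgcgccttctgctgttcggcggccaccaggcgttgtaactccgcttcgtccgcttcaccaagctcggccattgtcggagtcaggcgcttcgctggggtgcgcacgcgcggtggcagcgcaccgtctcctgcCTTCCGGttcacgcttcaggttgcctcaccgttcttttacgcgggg
Cox6a1: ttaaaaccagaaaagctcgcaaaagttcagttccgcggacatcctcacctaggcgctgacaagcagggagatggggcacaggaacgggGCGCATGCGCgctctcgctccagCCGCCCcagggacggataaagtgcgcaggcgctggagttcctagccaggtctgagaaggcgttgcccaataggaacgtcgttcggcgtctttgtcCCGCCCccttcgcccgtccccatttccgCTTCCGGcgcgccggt
Atp5e: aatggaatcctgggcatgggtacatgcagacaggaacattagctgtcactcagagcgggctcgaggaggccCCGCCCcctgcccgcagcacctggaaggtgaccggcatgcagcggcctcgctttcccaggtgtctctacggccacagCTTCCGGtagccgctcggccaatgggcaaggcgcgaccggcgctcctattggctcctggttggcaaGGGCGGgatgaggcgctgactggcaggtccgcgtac
The Sdhb window, of a gene with a log2 fold change of 0.67, has 3 SP1 matches and the NRF1 match from 54 to 47 bases before the start. The Sdhd window, of a gene at -0.95, has an ETS match from 46 to 40 bases before the start. The Cox6a1 window has an overlapping pair of NRF1 matches, one on each strand, from 162 to 153 bases before the start, 2 SP1 matches and an ETS match. The Atp5e window has an ETS match from 102 to 96 bases before the start between 2 SP1 matches. The search also matched the ETS letters for Sdhb and the SP1 and ERRalpha letters for Sdhd. Those matches are not wholly within the 250 bases printed, and their places were not recorded. The bases printed are from the first window listed for each gene, while the search took in any window of the gene.

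Some of the members with the largest differences lay among genes that differed the same way. Uqcrfs1, on chromosome 13, had 5 tested genes within 1 Mb, all 5 lower in MV+, with a median log2 fold change of -1.13 beside its own -1.21. Sdha, also on chromosome 13, had 20 tested neighbours, 18 of them lower and 2 higher, and their median was -0.78 beside its own -0.92. Over the whole of chromosome 13, 66.7% of the 514 tested genes were called lower and 17.9% higher, with a median of -0.58, and 5 of its 6 tested members were lower. Sdhc, on chromosome 1, had 28 tested neighbours, 22 higher and 4 lower, with a median of 0.74 beside its own 0.41. Over the whole of chromosome 1, 50.1% of 736 tested genes were higher and 30.0% lower. All 3 tested members on chromosome 4 (Sdhb, Ndufb6 and Uqcrh) were called higher, and there 55.1% of 816 tested genes were higher, with a median of 0.34. The neighbours of Sdhb were more evenly split, 12 of 25 higher and 9 lower, with a median of 0.15 beside its own 0.67. Ndufa13, on chromosome 8, had 43 of 60 neighbours higher and 10 lower, where 50.1% of the 693 tested genes of the chromosome were higher and 29.6% lower.

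Across the 71 tested members with at least 5 tested neighbours, Pearson's r between the member's log2 fold change and the median of its neighbours was 0.39 and Spearman's rho was 0.50. This is a description across genes, some of which share neighbours. All 7 members called higher had a neighbour median above 0, while 24 of 45 called lower had one below 0. Over all 71 members the middle value of these neighbour medians was 0.05. Members also stood below their neighbours: 57 of the 71 had a lower value than their neighbours' median, by a median of 0.40 on the log2 scale (-0.40). Sdhd (-0.95, neighbours 0.32), Ndufb4 (-0.98, neighbours 0.13) and Cox7a1 (-1.81, neighbours 0.17) went against their surroundings. What part position plays in these differences was not tested.

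**Figure D4:**
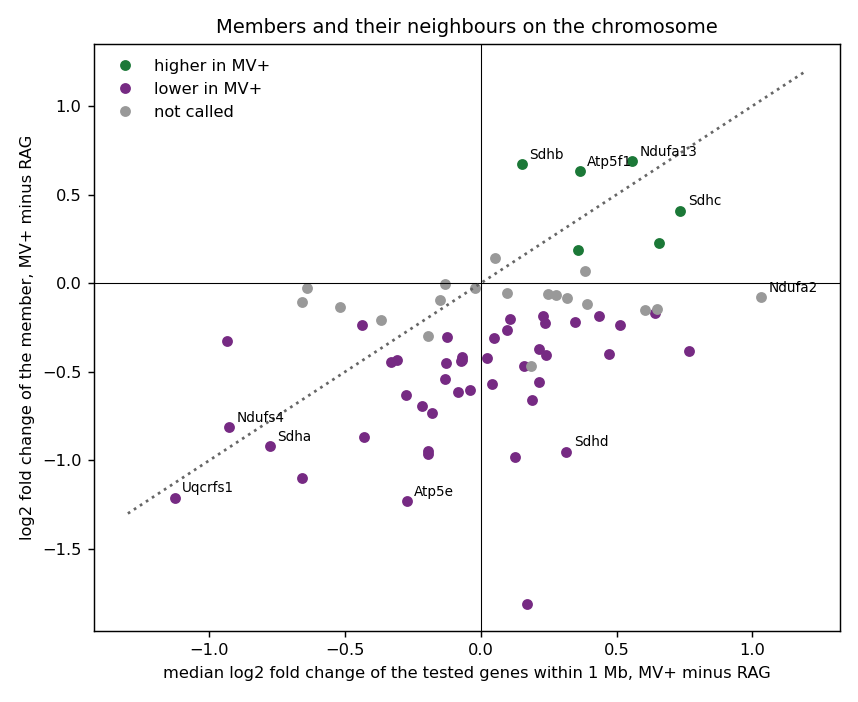
Log2 fold change of members with at least 5 tested neighbours (y axis) against the median of the genes within 1 Mb (x axis), both MV+ minus RAG, coloured by the member's call, with the dotted line at equal values. Cox6a2 is among those not drawn. Uqcrfs1 and Sdha lie near the line, 57 of the 71 members lie below their neighbours, and Sdhd is well below its neighbours.

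Small subunit genes have many processed copies in the genome. Of the 79 members 42 had at least 1 window of 50 exon bases, the read length, with an identical copy elsewhere in mm9, and 11 had copies of at least 50% of their windows: Atp5g2 (100%), Atp5l (89.4%), Cox7c (87.8%), Ndufb4 (87.2%), Ndufs5 (82.8%), Atp5g1 (79.5%), Atp5h (73.9%), Uqcrb (65.9%), Cox5b (62.3%), Ndufa12 (54.9%) and Cox7a2l (54.2%). Their median level was 17.4 FPKM in MV+ and 20.2 FPKM in RAG, against 107.6 and 114.4 FPKM for the 54 members with copies of under 10% of windows. Calls were 5 higher and 33 lower of 50 tested members with under 10% copied, and 2 higher and 14 lower of 24 with more.

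**Figure D5:**
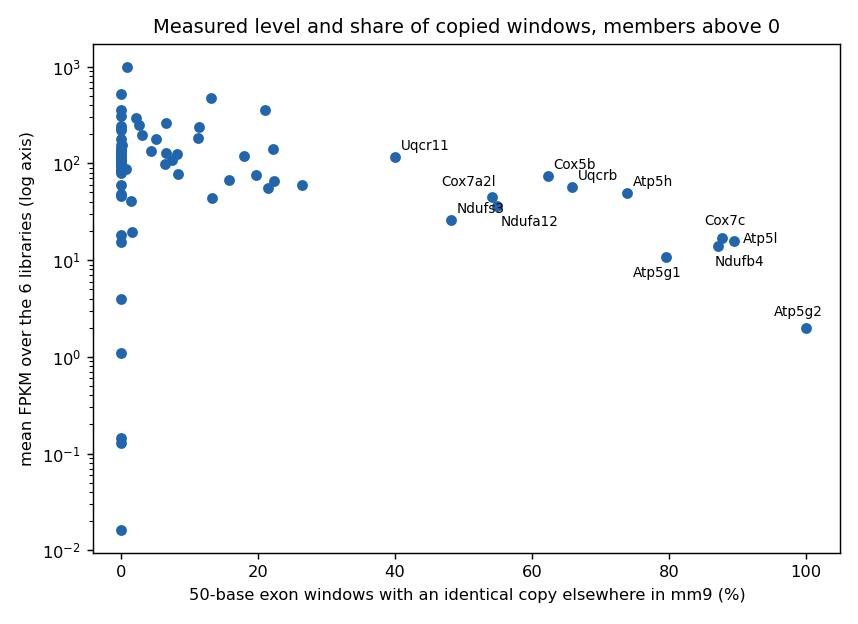
Mean deposited FPKM over the 6 libraries (y axis, log scale) against the percentage of 50-base exon windows with an identical copy elsewhere in mm9 (x axis), 1 point for each member with a mean above 0. Members with over 80% of windows copied lie below 20 FPKM, while those without copies spread over the whole range.

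Ndufs5, a complex I subunit, is listed at 0 counts in all 6 libraries, and its row cannot show whether the gene was transcribed. Its exons lie on chromosome 4 from 123389953 to 123395429 (mm9, minus strand), and 484 of its 509 exon bases are also annotated as exons of BC002163, a gene annotated on chromosome 16 as well. Default counting leaves out a read that overlaps several genes, and a read that fits both chromosomes. BC002163 itself had 437, 536 and 571 counts in MV+ and 534, 376 and 629 in RAG, from libraries of different depth, and was called higher in MV+ (0.65 ± 0.10, adjusted p = 1.6e-05). The first 50 coding bases of Ndufs5 are printed because they occur letter for letter on chromosome 16 at chr16:42955744-42955793 (mm9, plus strand), as do 198 of its 272 coding windows (72.8%).
Ndufs5: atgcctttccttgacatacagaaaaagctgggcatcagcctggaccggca
Cox7c, likewise, has an exact copy of 187 of its windows at Gm10012 on chromosome 17, which had 2, 4 and 0 counts in MV+ and 3, 1 and 11 in RAG.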

How the data were processed

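RNA was depleted of ribosomal RNA and sequenced as single 50-base reads, aligned by the authors with TopHat 2 to mm9 and counted on RefSeq genes with featureCounts 1.5.0-p3, whose command line in the file header sets no option for strand, so at defaults that ignore strand and leave out reads that fit several places or overlap several genes. The deposited table holds raw counts and FPKM values, and FPKM recomputed from the counts and lengths matched the deposited FPKM to within a relative difference of 5.79e-14.

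The counts were tested with edgeR 4.0.16 (R 4.3.3, filterByExpr, TMM, robust quasi-likelihood test), MV+ against RAG, with Benjamini-Hochberg adjustment over all genes tested. Tested on simulated data, the fit recovered most known changes, the smallest least often, with somewhat more false calls than the nominal rate. Few genes were changed in those data, in both directions, whereas 79.3% of the genes tested were called between the lines. The simulation therefore cannot show how the scaling behaves when most genes differ. DESeq2 1.42.0, limma 3.58.1 on log2(FPKM + 1) and other scalings, filters and left-out libraries were alternatives. Libraries of the same replicate number deviated together, with deviations from the line means that correlated at 0.374, 0.267 and 0.219. The other pairs correlated at -0.217 to -0.0406. Because each line's deviations are taken from its own mean, positive values for the same number bring negative ones otherwise. A fit with the number as a block was run, although the sources used here do not say what a number shares.

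Genes named with values in every library were the catalytic core, the isoform families, up to 3 called members in each direction of a complex with a mean of at least 5 CPM, and the most changed gene of each list in each direction. Cyc1, Cox4i1, Ppargc1b, Pprc1, Esrra, Tfam, Gabpa, Nrf1, Atp5j and the sequences shown were chosen after values were seen. The members and lists were chosen with earlier results of these data known. Of the catalytic core 1 member is not reported here and not drawn, though counts, medians and sums include it. Intervals cover counting error only. Copies were found by exact matches of 50-base exon windows to the mm9 chromosomes.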

Additional observations from a re-analysis of the deposited data

How the results depend on the processing

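The direction of the 54 called members held under each alternative, apart from Uqcrq and Cox8a, which reversed in the 3 limma fits of the FPKM values (0.0129 and 0.000111 with a pseudocount of 1, 0.0129 and 0.000112 with 0.1), and 23 members were called in each fit. Of the 20 uncalled members 16 changed sign under some alternative. Members called higher and lower numbered 7 and 45 with DESeq2, 7 and 44 with RLE scaling, 7 and 39 with upper quartile scaling, 9 and 34 with library totals without Rn45s, 7 and 50 with no filter, 7 and 44 with a filter of 1 CPM in 3 libraries, and 7 and 51 with the replicate block, which changed no other call than those of Atp5d, Uqcr10, Atp5j and Ndufa8. With limma on FPKM they numbered 10 and 31 with either pseudocount, and 6 and 19 (25 in all) with no filter, where more genes were tested. The members' median was -0.23 with upper quartile scaling, -0.16 with library totals, and -0.12 in each limma fit (-0.123, -0.124 and -0.119). Those scalings moved the median of all genes to 0.11, 0.17, 0.15 and 0.20, and the members' median less that of all genes was -0.28 with limma and -0.12 with limma and no filter. In that last fit 67 genes of the 10 pathway lists, which leave out the cytosolic ribosome, were lower, against 128 in the main fit.

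Leaving out each library in turn gave 47 to 55 called members, 5 to 7 higher, 41 to 49 lower and 5 to 7 past a log2 fold change of 1, and medians of -0.35 to -0.29. Without MV+ replicates 1 and 2, a fit chosen after seeing the data because they held most counts of the insulin gene Ins2 (53 and 47, against 23 in replicate 3 and 0 in RAG) and which leaves MV+ with 1 library assumed to vary like RAG, 5 were higher and 43 lower. Summed as CPM the complexes' log2 ratios were -0.24, -0.49, -0.46, -0.47 and -0.52 for complexes I to V. As shares of counts Atp5g1 took 2.40% in MV+ and 2.66% in RAG, Cox6a1 99.98% and 99.52%, Cox7a1 0.767% and 1.95%, and Cox7b 99.84% in RAG. The cause of these changes was not tested. The 3 libraries a line limit the precision, and counts of Cox6b2, Cox7b2, Cox8b and Cox8c are too few for a fit.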
